A study of Homo sapiens with 24 samples.

Results

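The peaks that a nonspecific IgG antibody gave in osimertinib-resistant cells were compared with those it gave in the parental cells, in wild-type HCC827. All 2529 peaks of the resistant wild-type IgG list and all 1444 peaks of the parental wild-type IgG list were taken, which is 3973 of the 13347 peaks in the 8 lists of the series. HCC827 is a human lung adenocarcinoma line with a mutated and amplified EGFR gene. The parental group was untreated, and the resistant group, HCC827-OR, was kept in 1 µM osimertinib, an inhibitor of mutant EGFR, so that resistance and the drug in the medium cannot be told apart. Both groups carried no METTL7A transgene and were grown in the same medium. Each list joins 2 samples that the labels call biological replicates, so 4 of the 24 samples of the series stand behind the comparison. The labels give no number of separate resistant lines or clones.

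An IgG isotype control recognises no chromatin protein, and the fragments it pulls down are a background sample of the sheared genome. Such background is known to follow the number of copies of a region, because each extra copy adds fragments, and to favour open chromatin such as active promoters, which shears and is recovered more easily. Repeated sequences that an assembly holds in too few copies also collect reads. Such lists can therefore reflect copy number and chromatin state together, neither of which was measured separately here. They do not show the binding of a factor.

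Sequences of 4 gene starts at which the lists shared a peak are given first, because several of the highest shared positions lay at gene starts. They were chosen after their values were seen. They are the 250 bases before the start of transcription in RefSeq, build GRCh38.p14, with each CpG in capitals. SEC61G, which encodes a subunit of the protein translocation channel of the endoplasmic reticulum, and EGFR, the receptor tyrosine kinase itself, are neighbours on 7p. TBK1, an innate immune kinase, is on 12q, and TMEM170B, a membrane protein gene, is on 6p.
SEC61G, chr7:54759212-54759461, minus strand: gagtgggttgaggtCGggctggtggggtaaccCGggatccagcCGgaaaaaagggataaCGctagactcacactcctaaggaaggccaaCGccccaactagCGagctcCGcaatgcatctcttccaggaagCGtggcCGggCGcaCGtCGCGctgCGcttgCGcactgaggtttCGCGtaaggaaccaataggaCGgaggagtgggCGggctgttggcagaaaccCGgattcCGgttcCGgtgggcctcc
EGFR, chr7:55018767-55019016, plus strand: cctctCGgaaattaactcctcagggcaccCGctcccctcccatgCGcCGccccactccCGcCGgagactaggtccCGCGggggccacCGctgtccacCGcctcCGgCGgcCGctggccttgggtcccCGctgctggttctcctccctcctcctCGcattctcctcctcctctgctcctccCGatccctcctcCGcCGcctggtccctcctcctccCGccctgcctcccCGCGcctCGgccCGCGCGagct
TBK1, chr12:64451870-64452119, plus strand: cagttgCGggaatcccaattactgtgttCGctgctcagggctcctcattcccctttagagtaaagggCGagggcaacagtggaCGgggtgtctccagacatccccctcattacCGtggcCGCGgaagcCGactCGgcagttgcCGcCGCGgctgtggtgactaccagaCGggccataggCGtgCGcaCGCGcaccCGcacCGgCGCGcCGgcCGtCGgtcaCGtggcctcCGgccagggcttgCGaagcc
TMEM170B, chr6:11537499-11537748, plus strand: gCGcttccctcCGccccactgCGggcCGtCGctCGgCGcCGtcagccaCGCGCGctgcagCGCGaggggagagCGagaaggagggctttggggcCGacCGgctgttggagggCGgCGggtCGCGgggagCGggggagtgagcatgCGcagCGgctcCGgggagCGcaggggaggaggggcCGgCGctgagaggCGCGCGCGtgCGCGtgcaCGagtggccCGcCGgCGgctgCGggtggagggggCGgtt
These windows held 22 CpG in SEC61G, 25 in EGFR, 27 in TBK1 and 39 in TMEM170B. Among all 27305 promoters of the table the median was 11 CpG, and as many CpG as in each of the 4 were found in 27.6%, 21.3%, 17.3% and 2.51% of them. Of 19 gene symbols at named peaks that were looked up, 10 matched the table and 7 had an entry within 1 kb of the start used here. The peaks are on GRCh37 and the windows on GRCh38.p14, so the position of a peak within its window was not computed.

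Peak heights are −log10 p-values that the authors deposited for both replicates, and the height of a peak is the lower of its 2 replicate values. The resistant list was longer and its peaks were higher. Its median height was 4.52, with quartiles of 3.92 and 5.70 and a maximum of 294. The parental median was 3.70, with quartiles of 3.32 and 4.75 and a maximum of 20.8. A height of 5 or more was reached by 989 resistant peaks (39.1%) and 252 parental peaks (17.5%). A height of 9 or more was reached by 97 resistant and 19 parental peaks. Width differed little, with medians of 610 bp and 594.5 bp. Depth is unknown from the files, and height rises with depth, so no difference in height between the lists is read as a change in the cells.

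Few peaks of either list passed the reproducibility measure. At a global irreproducible discovery rate (IDR) of 0.05 or less, a measure of how well the ranks of a peak match in both replicates, 31 parental peaks (2.15%) and 20 resistant peaks (0.791%) were reproducible. Their lowest heights were 7.15 and 12.9, so these counts do not share a height threshold. Across peaks, the heights of the 2 replicates had a Spearman correlation of 0.141 in the parental and 0.122 in the resistant list. Peaks of 1 list share their libraries, and these correlations are descriptions.

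The question put to the chromosome arms was whether the resistant cells had a different share of their background peaks on any arm. The long arm of chromosome 12 rose: 12q held 52 parental peaks, a share of 3.60% (95% Clopper-Pearson interval 2.70 to 4.70), and 176 resistant peaks, a share of 6.96% (6 to 8.02). The odds ratio was 2.00 (95% interval 1.45 to 2.80), with a Benjamini-Hochberg adjusted p = 0.000300 by 2-sided Fisher exact tests over 42 arms. It was the only arm called of the 42, so that 2.38% of arms were called. For 19p, with 16 (1.11%) parental and 62 (2.45%) resistant peaks and an odds ratio of 2.24 (1.27 to 4.18), the exact test missed the threshold (adjusted p = 0.0593). Only 1 list stands for each cell state, so these tests compare lists of peaks and not the spread between cultures, and neighbouring peaks are treated as independent.

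The call on 12q depended on how peaks were chosen by height. Among peaks under a height of 5, 12q held 34 of 1192 parental peaks (2.85%, interval 1.98 to 3.96) and 97 of 1540 resistant peaks (6.30%, interval 5.14 to 7.63), an odds ratio of 2.29 (1.52 to 3.52). Among peaks of 5 or more it held 18 of 252 (7.14%) and 79 of 989 (7.99%), an odds ratio of 1.13 (0.654 to 2.04), and the call was lost. The parental share of 12q thus differed more between the height classes than the resistant share did. With the 1000 highest peaks of each list, an alternative chosen after seeing the data that sets a different lowest height in each list, the call was kept. There 12q held 38 parental and 80 resistant peaks, an odds ratio of 2.2 (1.46 to 3.37) with an adjusted p = 0.00361 by the exact tests. When each stretch of 100 kb with a peak was counted once, 12q held 35 of 1195 parental and 121 of 2008 resistant windows, with an odds ratio of 2.12 and an adjusted p = 0.00249 by the same exact tests.

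The short arm of chromosome 7, which carries EGFR, had the largest parental share of any arm. It held 119 parental peaks (8.24%) and 175 resistant peaks (6.92%), an odds ratio of 0.828 (0.645 to 1.06), and an adjusted p = 0.451 in the Fisher exact tests did not separate the lists. Among peaks of 5 or more the shares were 50 of 252 (19.8%) and 114 of 989 (11.5%), an odds ratio of 0.527 (0.361 to 0.776), and 7p was then the only arm called. The long arm, 7q, held 45 parental peaks (3.12%) and 103 resistant peaks (4.07%), with an odds ratio of 1.32 (0.915 to 1.93) and an adjusted p = 0.451 by the exact test.

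**Figure D1:**
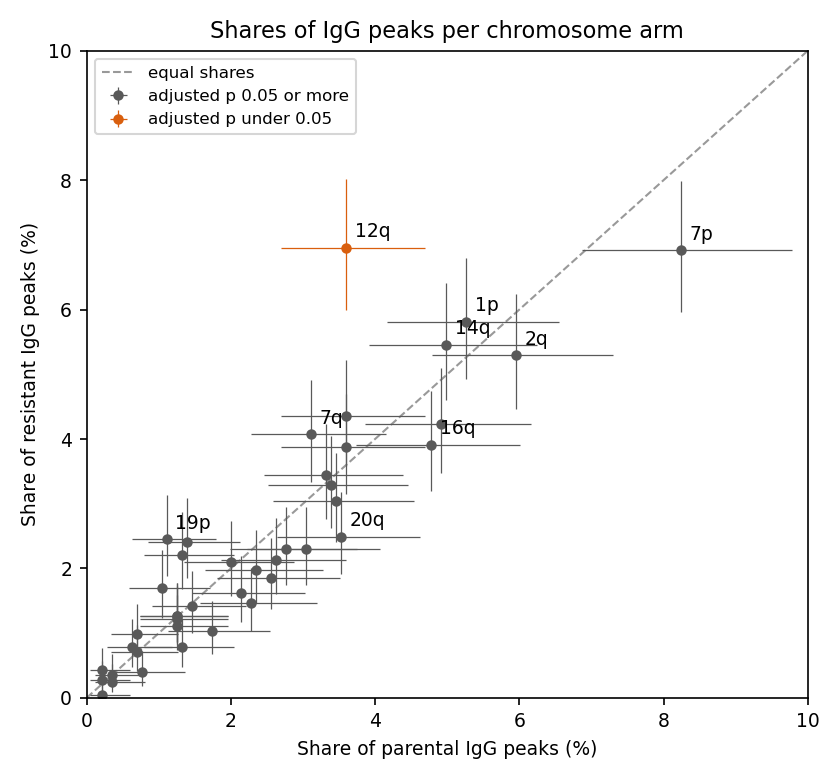
Share of the parental wild-type IgG peaks (horizontal axis, %) and of the resistant wild-type IgG peaks (vertical axis, %) on each chromosome arm, with 95% Clopper-Pearson intervals as bars and equal shares as a dashed line. The called arm, 12q, lies at 3.60% and 6.96%, and 7p lies at 8.24% and 6.92%.

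The same arm in other libraries of the same cells gave a smaller difference. With the antibody to the MYC tag, which has no tagged protein to bind in wild-type cells but can bind MYC itself, 12q held 61 of 1005 parental peaks (6.07%) and 197 of 2767 resistant peaks (7.12%). The odds ratio was 1.19 (0.877 to 1.62) and an adjusted p = 0.768 by Fisher exact tests did not separate the lists. Of 41 arms tested in the MYC-tag pair 2 were called (4.88%), 11p higher (2.44%) and 7p lower (2.44%) in the resistant list. The odds ratios of 12q in the IgG and MYC-tag pairs differed by Zelen's exact test (p = 0.0198). The arm was chosen for its call in the IgG pair, and this p is not adjusted for that choice. At heights of 5 or more the ratio of the odds ratios turned from 1.69 to 0.719 (exact p = 0.432). The resistant shares of the 2 antibodies were close, 6.96% and 7.12%, and the parental shares were 3.60% and 6.07%.

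Bins of 5 Mb and 1 Mb asked for a more exact position, and none was called. Of 253 bins of 5 Mb with at least 5 peaks, 0 were called (0.0%), the lowest adjusted p being 0.290. Of 202 bins of 1 Mb, 0 were called (0.0%), with a lowest adjusted p of 0.883. At an unadjusted p under 0.05 the Fisher exact tests gave 16 bins of 5 Mb, of which 4 were higher and 12 lower in the resistant list, and 8 bins of 1 Mb, of which 1 was higher and 7 lower. A bin with peaks in the resistant list alone needed 20 of them to pass by itself, which 43 bins of 5 Mb and 12 bins of 1 Mb could reach. With peaks in the parental list alone 9 were enough, which 138 and 67 bins could reach. A lower share in the resistant list was thus easier to call, and these counts by direction are not read as a direction. In the MYC-tag pair 2 of 239 bins of 5 Mb (0.837%) and 3 of 177 bins of 1 Mb (1.69%) were called, all lower in the resistant list. There 7 peaks in the parental list alone were enough, against 29 in the resistant list alone.

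Along 12q the added resistant peaks were spread over several stretches. Between 45 and 55 Mb the parental list had 4 peaks and the resistant list 38. The bin at 50 to 55 Mb alone had 3 and 27, the lowest unadjusted p of all 5 Mb bins (0.00184, adjusted p = 0.290, Fisher exact test). Between 60 and 70 Mb the counts were 4 (0.277%) and 21 (0.830%), and between 105 and 120 Mb they were 1 (0.0693%) and 22 (0.870%). Between 57 and 59 Mb, the stretch with CDK4, a cell cycle kinase gene that is often amplified in cancer, the counts were 15 (1.04%) and 28 (1.11%). The last 15 Mb, from 120 to 135 Mb, had 21 (1.45%) and 41 (1.62%). The arm therefore held stretches with near equal shares beside stretches where the parental list was almost empty. In the MYC-tag lists, which also differ in length, the 45 to 55 Mb stretch had 10 parental (0.995%) and 44 resistant peaks (1.59%). The 105 to 120 Mb stretch had 3 (0.299%) and 20 (0.723%). The 60 to 70 Mb stretch went the other way there, with 12 parental (1.19%) and 21 resistant (0.759%) MYC-tag peaks. These stretches were chosen after their counts were seen and were not tested.

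A similar pattern was seen within 7q, without a call when all peaks were used. Between 85 and 120 Mb the parental list had 11 peaks (0.762%, interval 0.381 to 1.36) and the resistant list 62 (2.45%, interval 1.88 to 3.13). Within it, the stretch from 95 to 105 Mb had 4 and 38 peaks. From 120 Mb to the end of the arm the order of the shares was the opposite, with 31 (2.15%) and 29 (1.15%). The MYC-tag lists had 3 parental (0.299%) and 68 resistant peaks (2.46%) between 85 and 120 Mb, and 20 (1.99%) and 21 (0.759%) beyond. The bins at 95 to 100 Mb and 100 to 105 Mb had adjusted p = 0.397 and 0.336 in the Fisher exact tests, and the stretch was chosen after seeing its counts. With the 1000 highest peaks of each list, the bin at 100 to 105 Mb was called, higher in the resistant list. That alternative was chosen after seeing the data.

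The densest cluster of both lists lay around EGFR, between 54 and 56 Mb of chromosome 7. It held 60 parental peaks (4.16%) and 106 resistant peaks (4.19%), shares that differed by less than their counting intervals (3.19 to 5.32 and 3.44 to 5.05). The stretches beside it were thin, with 3 and 5 peaks at 53 to 54 Mb and 6 and 7 at 56 to 58 Mb. Of its 20 windows of 100 kb, 14 had a parental peak, 14 a resistant peak and 13 both. The median height in the cluster was 5.45 in the parental and 6.70 in the resistant list. The MYC-tag lists had 128 parental peaks (12.7%) and 139 resistant peaks (5.02%) there, so the near equal shares of the IgG pair were not met in the other antibody.

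**Figure D2:**
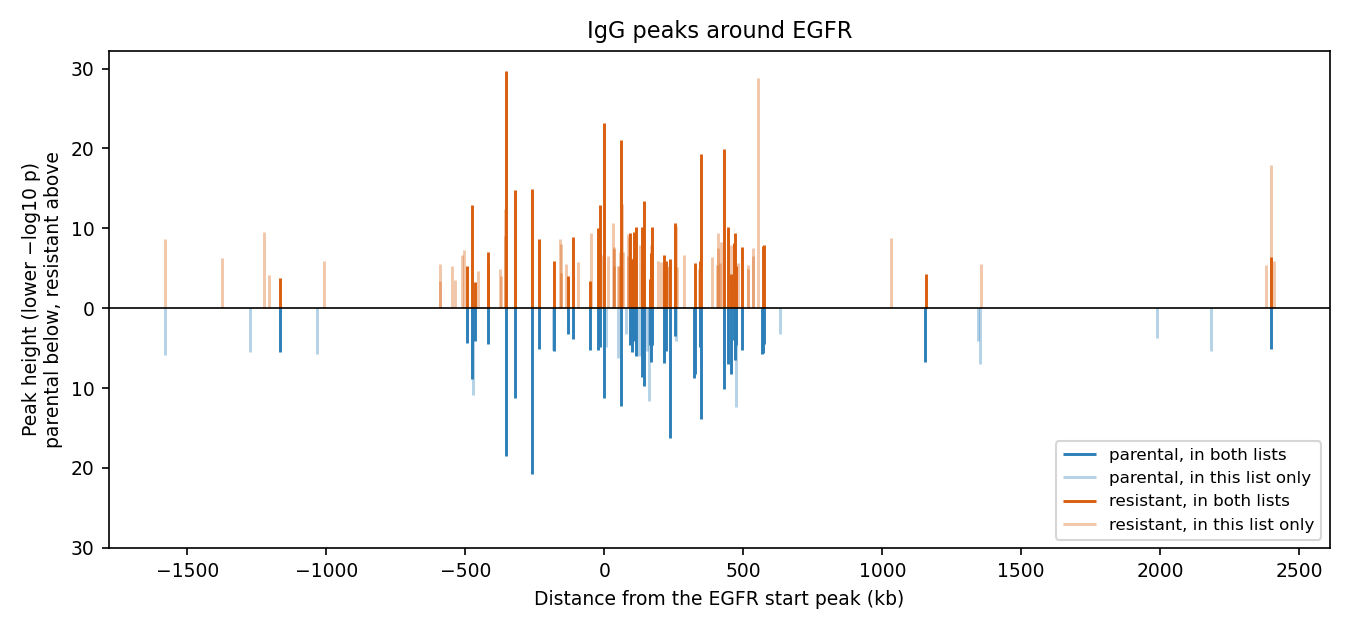
Heights of all peaks near EGFR, resistant above and parental below the line (lower −log10 p of the 2 replicates), by distance from the parental peak at the EGFR start in kb; dark lines are peaks with a match in the other list. The resistant maximum here is 29.7 and the parental maximum is 20.8, both on the side of SEC61G, and the peaks at the EGFR start reach 23.2 and 11.2.

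Positions that both lists held were counted at an overlap of 1 bp or more. There were 216 such parental peaks (15%, interval 13.2 to 16.9) and 214 such resistant peaks (8.46%, interval 7.41 to 9.62), 1 set of places set against lists of different length. Outside chromosome 7 the shares were 158 of 1280 (12.3%) and 157 of 2251 (6.97%). In the EGFR cluster, 45 of 60 parental peaks (75%) and 44 of 106 resistant peaks (41.5%) were shared. At 57 to 59 Mb of chromosome 12, 11 of 15 (73.3%) and 11 of 28 (39.3%) were shared. On 12q as a whole the shares were 18 of 52 (34.6%) and 18 of 176 (10.2%), and on 7q they were 6 of 45 (13.3%) and 6 of 103 (5.83%). By arm, 7p supplied 52 of the 216 shared parental peaks (24.1%), 12q supplied 18 and 14q supplied 16.

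High peaks were shared more often than low ones in the parental list. Of parental peaks under a height of 3.5, 39 of 509 (7.66%) had a match, against 57 of 213 (26.8%) between 5 and 7, and 15 of 19 (78.9%, interval 54.4 to 93.9) at 9 or more. Of resistant peaks, 26 of 503 (5.17%) under 3.5, 79 of 705 (11.2%) between 5 and 7, and 30 of 97 (30.9%, interval 21.9 to 41.1) at 9 or more had a match. Peaks that were shared also recurred more in the MYC-tag list of their own cell state. That held for 70 of 216 shared (32.4%) and 86 of 1228 other parental peaks (7.00%), and for 91 of 214 shared (42.5%) and 279 of 2315 other resistant peaks (12.1%). At heights of 5 or more the shares were 44 of 80 (55%) and 30 of 172 (17.4%) in the parental list, and 73 of 127 (57.5%) and 143 of 862 (16.6%) in the resistant list. Outside chromosome 7, at any height, they were 27 of 158 (17.1%) and 66 of 1122 (5.88%) in the parental list. In the resistant list they were 48 of 157 (30.6%) and 215 of 2094 (10.3%). In the EGFR cluster 40 of 45 shared (88.9%) and 13 of 15 other parental peaks (86.7%) recurred. There, 39 of 44 shared (88.6%) and 42 of 62 other resistant peaks (67.7%) did.

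**Figure D3:**
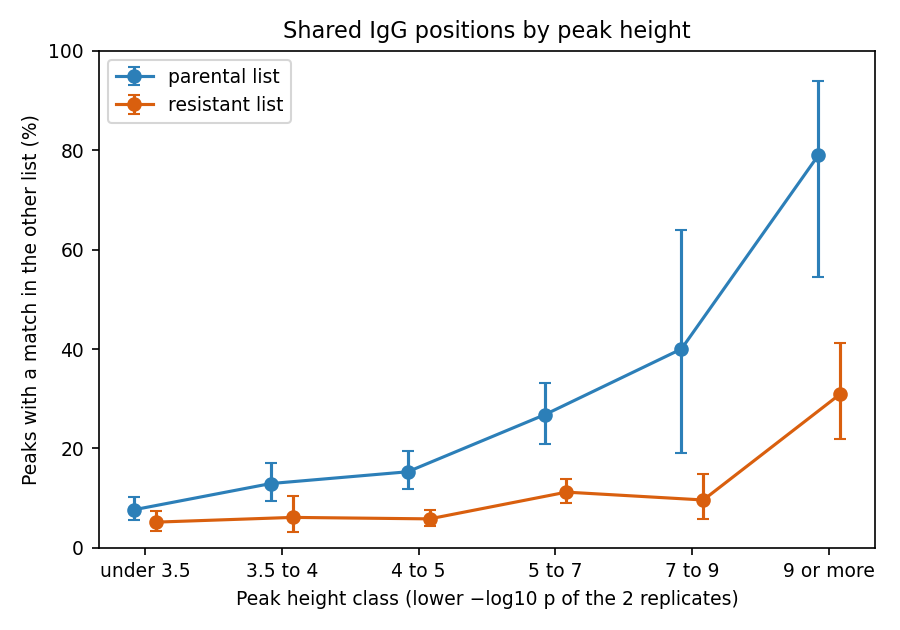
Share of peaks with a match in the other wild-type IgG list (%), by height class (lower −log10 p of the 2 replicates), with 95% Clopper-Pearson intervals. The parental share goes from 7.66% in the lowest class to 78.9% in the highest, and the resistant share from 5.17% to 30.9%.

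At the 216 shared positions the resistant height was the larger in 150 (69.4%), with medians of 4.53 parental and 5.44 resistant. Across these positions the heights had a Spearman correlation of 0.356, a description over places that share both pairs of libraries. Ranked by the smaller of its heights in the 2 lists, the highest shared position was chr7:54731577-54733276 on GRCh37, between VSTM2A and SEC61G. Its parental replicate heights were 18.5 and 43.7, its resistant ones were 29.7 and 69.1, and 6 of the 8 lists of the series had a peak there.

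Of the next 9 positions, 3 were gene starts of the EGFR cluster. At the start of SEC61G (chr7:54826493-54827120) the replicate heights were 20.8 and 27.3 in the parental and 14.9 and 38.2 in the resistant list. At the start of LANCL2 (chr7:55433181-55434370), a lanthionine synthetase-like gene, they were 13.9 and 46.2, and 19.3 and 53.9. At the EGFR start (chr7:55086146-55088168) they were 11.2 and 24.2, and 23.2 and 58.6. At the EGFR and LANCL2 starts both the smaller and the larger replicate value were higher in the resistant list. At SEC61G the smaller value was lower and the larger one higher.

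Within the EGFR gene, an intronic peak at chr7:55145167-55147096 had heights of 12.2 and 15 in the parental and 21.1 and 42 in the resistant list, and it was found in 7 of the 8 lists. A second peak inside EGFR, chr7:55228510-55229266, had heights of 9.72 and 15.2, and 19.2 and 13.4, and was found in 6. On the far side of LANCL2, at chr7:55516863-55517949, the heights were 10.1 and 27.3, and 20 and 67.1. At chr7:54765356-54765915 they were 13.1 and 11.2, and 14.8 and 34.5. All 4 of these positions were higher in the resistant list by the lower replicate value.

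The 10 highest shared positions included 2 on 12q. At chr12:65174228-65175229 the replicate heights were 11 and 24.3 in the parental and 14.3 and 36.8 in the resistant list. At chr12:58049462-58049996, near CDK4, they were 10.8 and 9.46, and 15 and 29. Both were outside the starts of the listed genes, and both were higher in the resistant list.

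Of 10 further shared gene starts, named after their values were seen, 7 were higher in the resistant list by the lower replicate value and 3 were lower. TMEM170B (chr6:11537477-11538913) had parental heights of 4.66 and 16.3 and resistant heights of 42.1 and 58.8, the largest shared height of the resistant list. TBK1 (chr12:64845713-64846326) had 6.09 and 28.4, and 17.5 and 44.4. ARHGEF25, a guanine nucleotide exchange factor gene, had 12.7 and 20.5, and 6.51 and 46.7. B4GALNT1, a ganglioside synthesis gene beside it, had 11.3 and 21.6, and 6.50 and 47.2. PIK3R1, a regulatory subunit gene of phosphoinositide 3-kinase, had 10.5 and 11.3, and 7.02 and 13. At ARHGEF25, B4GALNT1 and PIK3R1 the smaller replicate value was lower and the larger one higher in the resistant list. The direction at these starts thus depended on the value used. The other 5 starts were all higher in the resistant list. Among them, VSTM2A had 8.91 and 17.8, and 12.9 and 85, RASSF3 had 7.15 and 27.1, and 8.29 and 30.3, and SYDE2 had 6.94 and 9.21, and 13.3 and 17.5.

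**Figure D4:**
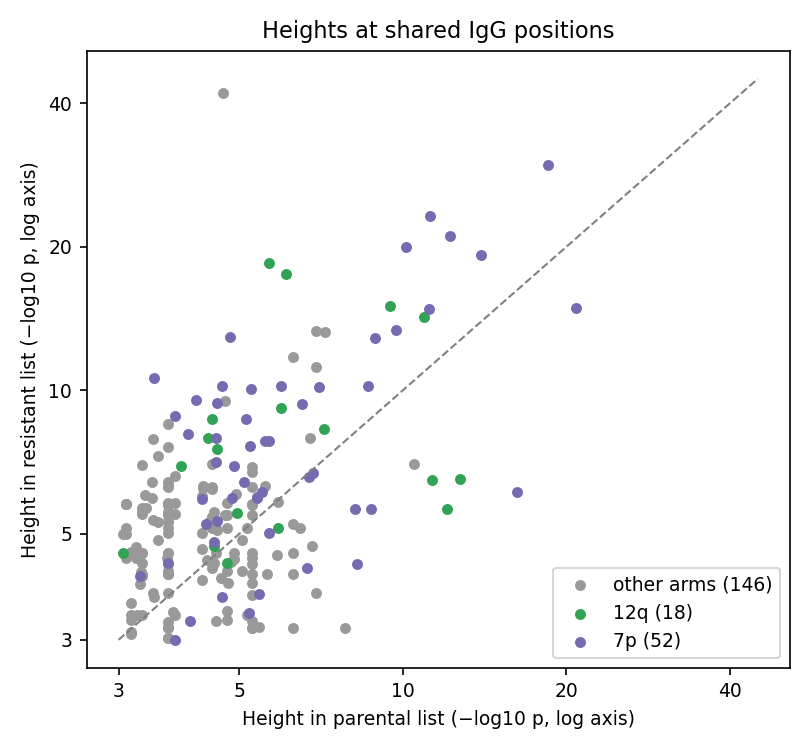
Heights (lower −log10 p of the 2 replicates, log axes) of the 216 shared positions in the parental list (horizontal axis) and the resistant list (vertical axis), with equal heights dashed; purple marks 7p, green 12q and grey the other arms. The resistant height is the larger at 150 positions, and the grey point near 42.1 is TMEM170B.

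High peaks were mostly resistant, and so were those without a match. Of the 97 resistant peaks of 9 or more, 67 had no parental match, of which 8 lay in the EGFR cluster and 47 were in no other list of the series. Of the 19 parental peaks of 9 or more, 4 had no resistant match, of which 3 lay in the EGFR cluster and 0 were in no other list. Over all heights, 2315 of 2529 resistant and 1228 of 1444 parental peaks had no match. Of these, 1871 and 973 were in no other list. The resistant list was the longer and its peaks the higher, so a missing parental match does not show that the place lacked signal in parental cells.

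The highest resistant peak without a match was also the highest peak of either list. It lay at chr21:9825490-9827150, with replicate heights of 607 and 294, and was found in no other list. On GRCh37 this is a stretch of the short arm of chromosome 21 that resembles a ribosomal RNA gene and holds the microRNA gene MIR3648, placed there from general knowledge of that build. Its mature product, from RefSeq GRCh38.p14, is printed because the peak covers its gene, with the seed, bases 2 to 8, in capitals.
hsa-miR-3648: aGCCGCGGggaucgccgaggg
It is 21 bases long with a G+C content of 81.0%. Both replicates of the resistant list had the peak, and neither the parental IgG list nor any of the other 6 lists did.

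Next by height came the start of VOPP1, a gene at the edge of the EGFR cluster (chr7:55639337-55640374), with heights of 28.8 and 49.4. A peak at chr7:57484264-57484849 had 19.6 and 18. The start of HMGA2, a chromatin architectural protein gene on 12q (chr12:66218869-66219595), had 20.1 and 16.1. These 3 peaks were in no other list of the series, as were 1871 of all 2315 resistant peaks without a match.

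Also among the 10 highest, the start of CHD7, a chromatin remodeller gene on chromosome 8, had heights of 14.2 and 15.5. A peak inside SH2B2, a signalling adaptor gene (chr7:101961716-101962270), had 15.6 and 14.2 and lay in the 7q stretch described above. A peak at chr22:16288317-16288835 had 15.3 and 13.9. These 3 were in no other list. A peak inside EGFR (chr7:55148914-55149398) had 18.5 and 13.1 and was in 4 lists, and a peak inside ADTRP (chr6:11770878-11771796) had 12.8 and 13.9 and was in 6.

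In the parental list, the highest peak without a resistant match overlapped HBB, the beta-globin gene (chr11:5246191-5247254), with heights of 16.2 and 13.1, and it was found in 4 of the 8 lists. Inside VOPP1 (chr7:55559724-55560578) the heights were 12.3 and 13.6, in EGFR (chr7:55248713-55249258) 11.6 and 11.9, and in VSTM2A (chr7:54614011-54614855) 10.9 and 21.3. The start of ZNF71 had 8.68 and 7.90. Also among the 10 highest were 3 peaks at none of the listed genes, on chromosomes 12, 14 and 8, with lower heights of 8.68, 8.68 and 8.39. Of the 10 highest peaks without a match, 2 in the parental list and 8 in the resistant list were in no other list of the series. Over all heights, 973 of 1228 parental and 1871 of 2315 resistant peaks without a match were in no other list.

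The 1 Mb bins of 26 genes known in lung adenocarcinoma or in resistance to EGFR inhibitors held few peaks. Of these, 6 had no peak in either list, among them CDK6 and CDKN2A, and the other 20 had at least 1 peak. Of these 20, 8 (40%) had peaks in the resistant list alone and 0 in the parental list alone. Of all 1397 bins of 1 Mb with a peak, 620 (44.4%) had peaks in the resistant list alone and 266 (19%) in the parental list alone. The 10 bins with at least 5 peaks were tested and 0 were called, beside 0.0% of all 1 Mb bins. EGFR had 45 parental and 77 resistant peaks, and CDK4 had 14 and 22. MET, a receptor kinase gene whose amplification is a known route of resistance to EGFR inhibitors, had 2 and 5. CCND1, the cyclin D1 gene, had 1 and 9 (adjusted p = 0.948), and STK11, a tumour suppressor kinase gene, had 2 and 14 (adjusted p = 0.948, all Fisher exact tests). SMARCA4, a chromatin remodeller gene, had 0 and 5, and TERT, the telomerase gene, had 9 and 8. The other 16 bins held too few peaks to be tested.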

How the data were processed

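Per the labels, wild-type HCC827 chromatin (ChIP-IT Express kit, Covaris shearing) was precipitated with an IgG isotype control and sequenced on an Illumina NovaSeq. Per the submitters' processing notes, the tools were MACS2 2.2.7.1, Bowtie2 2.4.2, bedtools 2.30, deepTools 3.5.1, SAMtools 1.16, FastQC and Trimmomatic, and the build was GRCh37. The control library, the filters and the depth were not given in the sources used here. The authors deposited 1 list of 20 columns for each group in the layout of the IDR method, joining 2 replicates. Heights are the −log10 p of each replicate, and the global IDR is stored as −log10, both as deposited by the authors. Which replicate fills which columns is not recorded.

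Shares of peaks per arm, 5 Mb bin and 1 Mb bin (at least 5 peaks over both lists) were compared by 2-sided Fisher exact tests with Benjamini-Hochberg adjustment over all regions of a kind and a threshold of 0.05. Arms called were compared between antibodies by Zelen's exact test. Shares carry 95% Clopper-Pearson intervals, which cover counting error only. Tests ran in Python 3.11.15 with SciPy 1.17.1 and pandas 2.3.3. They were run on simulated data in which peaks were drawn independently, so the effect of clustered peaks was not checked. Arms were split, and genes placed, from general knowledge of GRCh37, as no annotation of that build was used here. Peaks named are the 10 highest shared, the 10 highest in each list alone, and 26 driver genes whatever their values; a few of these are not reported here. Members and lists were chosen with earlier results of these data known. Alternatives were height limits, reproducible peaks, 100 kb windows, chromosome 7 left out, other bins and overlaps, and the MYC-tag lists.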

Additional observations from a re-analysis of the deposited data

Results flagged for a closer look

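The shift of 12q between cell states differed between antibodies. Its odds ratio, resistant against parental, was 2.00 in the IgG lists and 1.19 in the MYC-tag lists of wild-type cells, and Zelen's exact test of equal odds ratios gave p = 0.0198, with no adjustment for the choice of this arm by its call in the IgG lists. The 12q share was 3.60% in the parental IgG list, 6.07% in the parental MYC-tag list, 6.96% in the resistant IgG list and 7.12% in the resistant MYC-tag list. Among peaks of height 5 or more the ratio of the odds ratios turned from 1.69 to 0.719, with an exact p = 0.432. The depth of the 4 lists is unknown from the files, and its part in this difference was not tested.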

How the results depend on the processing

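No paired analysis was possible because each list joins both replicates of its group and does not keep them as separate libraries. For the same reason no replicate could be left out, and the heights of 1 replicate were used instead. The number of arms called, 1 in the comparison as reported, was 0 with first replicate heights of 5 or more, 0 with reproducible peaks alone and 2 in the MYC-tag lists (11p higher, 7p lower). It was 1 with lower or second replicate heights of 5 or more, but that arm was 7p and not 12q. The odds ratio of 12q lost its call at 1.13 (lower height of 5 or more), 1.30 (first replicate), 1.61 (second replicate), 1.14 (reproducible peaks) and 1.19 (MYC-tag lists). It kept the call at 2.12 with 100 kb windows, 2.00 without chromosome 7 and 2.2 with the 1000 highest peaks of each list, an alternative chosen after seeing the data. The ratio of odds ratios between antibodies reversed to 0.719 at heights of 5 or more.

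No 5 Mb or 1 Mb bin was called in the IgG lists under the alternatives listed in the processing. The MYC-tag lists gave 2 bins of 5 Mb and 3 of 1 Mb, all lower in the resistant list, the direction that needed fewer peaks. The 1000 highest peaks gave 1 bin of 5 Mb, at 100 to 105 Mb of chromosome 7, higher in the resistant list. Shared positions, 15% of the parental and 8.46% of the resistant list, came to 10.9% and 6.25% at an overlap of at least 0.5 of both peaks. They came to 21.8% and 5.36% with heights of 5 or more in both lists, 32.3% and 50% with reproducible peaks, 12.3% and 6.97% without chromosome 7, and 11.8% and 11.6% with the 1000 highest peaks. Median heights were 4.45 and 4.75 in the parental list by the first and second replicate, and 6.24 in the resistant list by the second. The cause of these moves was not tested. Unknown depth limits every difference in counts or heights.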

Other observations

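The share of peaks near the chromosome ends of highest coordinate was larger in the parental than in the resistant list. In the last 2 Mb before the last peak that any list of the series had on a chromosome, the parental IgG list had 189 of 1444 peaks (13.1%, Clopper-Pearson interval 11.4 to 14.9) and the resistant IgG list 242 of 2529 (9.57%, interval 8.45 to 10.8). The wild-type MYC-tag lists had 9.25% and 6.65% there. In the last 5 Mb the IgG lists had 20.8% and 16%, and the MYC-tag lists 15.5% and 12.5%. Both antibodies thus had the larger share at these ends of highest coordinate in parental cells. This measure was chosen after the counts were seen, and the difference was not tested. It left out the opposite chromosome ends, where the order varied. In the first 5 Mb of chromosome 16 the parental and resistant shares were 1.52% and 0.949% (IgG), and 0.597% and 0.398% (MYC-tag). On chromosome 19 they were 0.554% and 1.07% (IgG), and 0.0995% and 0.217% (MYC-tag).

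Many parental heights were identical. The commonest value of the first replicate, 3.70, belonged to 327 of the 1444 parental peaks (22.6%), while the commonest in the resistant list, 4.56, belonged to 118 of 2529 (4.67%). The parental list had 181 distinct first replicate heights and the resistant list 652.

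Most positions belonged to 1 list alone. Of the parental peaks 973 (67.4%), and of the resistant peaks 1871 (74.0%), overlapped no peak of any other list of the series. At the other end, 37 parental and 40 resistant peaks lay at positions found in 6 or more of the 8 lists.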
